A study of Mus musculus with 4 samples.

Results

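Ccr7-positive mature dendritic cells were picked out of single-cell RNA sequencing of mouse kidney after ischemia-reperfusion (I/R) injury, in which the blood flow to the kidney is stopped and then restored. A droplet barcode was kept with at least 200 genes detected and at most 50% of its unique molecular identifiers (UMIs, counts of captured RNA molecules) from mitochondrial genes. A kept barcode was a member with at least 2 UMIs of Ccr7, at least 2 UMIs over Fscn1, Ccl22 and Cacnb3 together, none of the T cell genes Cd3d, Cd3e and Cd3g, and none of the B cell gene Cd79a. The rule found 85 members among 37839 kept barcodes, or 0.225%. The members were thus chosen by measured UMIs of these genes, whose levels are given as a description with no test.

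Conventional dendritic cells take up antigen in tissues such as the kidney and present it to T cells. On maturation they switch on Ccr7, the receptor that leads them along the chemokines Ccl19 and Ccl21 towards lymphatic vessels and the draining lymph node, together with the actin-bundling protein Fscn1 and the chemokine Ccl22. Type 1 conventional dendritic cells, marked by Xcr1, are known for cross-presentation to CD8 T cells, and type 2 cells, for which Cd209a is a marker in the mouse, mainly prime CD4 T cells. Cells of either type can mature, and they lose much of their type-specific expression when they do.

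All mice were male C57BL/6 animals that had undergone I/R, and their kidneys were taken at day 5, day 14 or day 28 after the injury. In the other group, kidneys were taken at day 5 from mice that had been gavaged with Lactobacillus casei Zhang (Lac.z), a probiotic strain, at 1e9 colony-forming units per day over 4 weeks before the injury. Each group had 1 library, so a difference between libraries has no replicate check and cannot be told apart from a difference between animals or preparations. The day 5 library without Lac.z is the reference of all 3 comparisons between libraries. The sources used here state neither the number of animals behind a library nor any gavage of the other mice, and no uninjured kidney was analysed here.

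The members carried transcripts that dendritic cells hold. All 85 had UMIs of a dendritic marker list (Flt3, Zbtb46, Itgax, Ciita, Cd74, H2-Aa, H2-Ab1 and H2-Eb1), 55 had a UMI of Flt3 or Zbtb46, which are restricted to few other leukocytes, and Cd74, the invariant chain of MHC class II, had a median of 199 UMIs per cell. Members rich in macrophage RNA, described below, held the list too, so a UMI of it does not set dendritic cells apart. In the tests given below, 6 of the 8 genes were lower and none higher than in Cd209a-positive cells. Against Xcr1-positive cells 3 were lower and 1 higher. The members' median total was 12349 UMIs at day 5, 12018.5 among Lac.z members, 13355 at day 14 and 12575 at day 28. Markers of other cell types were summed over the members of each library and scaled to UMIs per 1000000 (CPM). The T cell list lay between 7.65 and 19.9 CPM with Cd2 and Cd4 at 0, the B cell list between 15.3 and 45.6 CPM with Iglc2 at 0, and Prox1, Lyve1 and Mmrn1 of lymphatic endothelium had no UMI in any library. The rule had left out barcodes with Cd3 or Cd79a UMIs, so low T and B cell sums were in part set by it. The monocyte list lay between 129 and 309 CPM and the plasmacytoid dendritic list between 199 and 394 CPM.

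Macrophage and tubule RNA was uneven between the libraries. The macrophage list summed to 7823 CPM at day 5, 119 CPM among Lac.z members, 81.9 CPM at day 14 and 2679 CPM at day 28, with Cd163 at 0 in all of them. This came from few cells. At day 5, 4 members held 203, 262, 297 and 328 UMIs of the complement genes C1qa, C1qb and C1qc, which mark macrophages, and at day 28 1 member held 104. No other member had more than 3. Some values between libraries are therefore also given for the members with at most 2 C1q UMIs. The proximal tubule list summed to 919, 1127, 6915 and 2281 CPM at day 5, day 5 with Lac.z, day 14 and day 28. Scrublet, which scores barcodes for likeness to simulated doublets, marked 1 of 29, 1 of 18 and 2 of 27 members as doublets in the first 3 libraries in this order. At day 28 it marked 6 of 11 members (54.5%) against 11.3% of all kept barcodes of that library. Pairs of libraries shared 15 to 43 barcodes, and no barcode was a member in both libraries of a pair.

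Mature cells were rare in every library and rarest at day 28. There were 29 among 7086 kept barcodes at day 5 (0.409%, Clopper-Pearson 95% interval 0.274 to 0.587), 18 among 7043 for Lac.z (0.256%, 0.152 to 0.404), 27 among 9572 at day 14 (0.282%, 0.186 to 0.410) and 11 among 14138 at day 28 (0.0778%, 0.0388 to 0.139). Against day 5, the share at day 28 was 5.26-fold lower (exact conditional 95% interval 2.55 to 11.7). The ratio was 0.624 with Lac.z (0.327 to 1.16) and 0.689 at day 14 (0.393 to 1.21), and both intervals included 1. The intervals cover counting error only. At day 28 the ratio was 0.260 after every barcode was thinned to 2000 UMIs. Without barcodes marked as doublets, 5 of 12539 were left at day 28 (0.0399%) against 28 of 6684 at day 5 (0.419%), a larger difference.

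The share depended on what the mature cells were counted against. Cd209a-positive cells (at least 2 Cd209a UMIs, not mature) numbered 133, 36, 102 and 57 in the order day 5, day 5 with Lac.z, day 14 and day 28, and Xcr1-positive cells numbered 55, 35, 56 and 41. Of the 3 dendritic sets together, mature cells made up 13.4%, 20.2%, 14.6% and 10.1%. The ratios to day 5 on this denominator were 1.51 (0.791 to 2.82) with Lac.z, 1.09 (0.622 to 1.91) at day 14 and 0.755 (0.340 to 1.56) at day 28, so each interval included 1. Among barcodes with a UMI of the leukocyte gene Ptprc, the share was 0.580%, 0.736%, 1.19% and 0.555%, which made the ratio 2.05 (1.14 to 3.66) at day 14 and 0.957 (0.376 to 2.16) at day 28. The share of Cd209a-positive cells among kept barcodes was 3.67-fold lower with Lac.z (2.52 to 5.47), and that of Xcr1-positive cells 1.56-fold lower (1.00 to 2.46). At day 28 these shares were also lower than at day 5, 4.66-fold for Cd209a-positive (3.39 to 6.47) and 2.68-fold for Xcr1-positive cells (1.75 to 4.11).

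**Figure D1:**
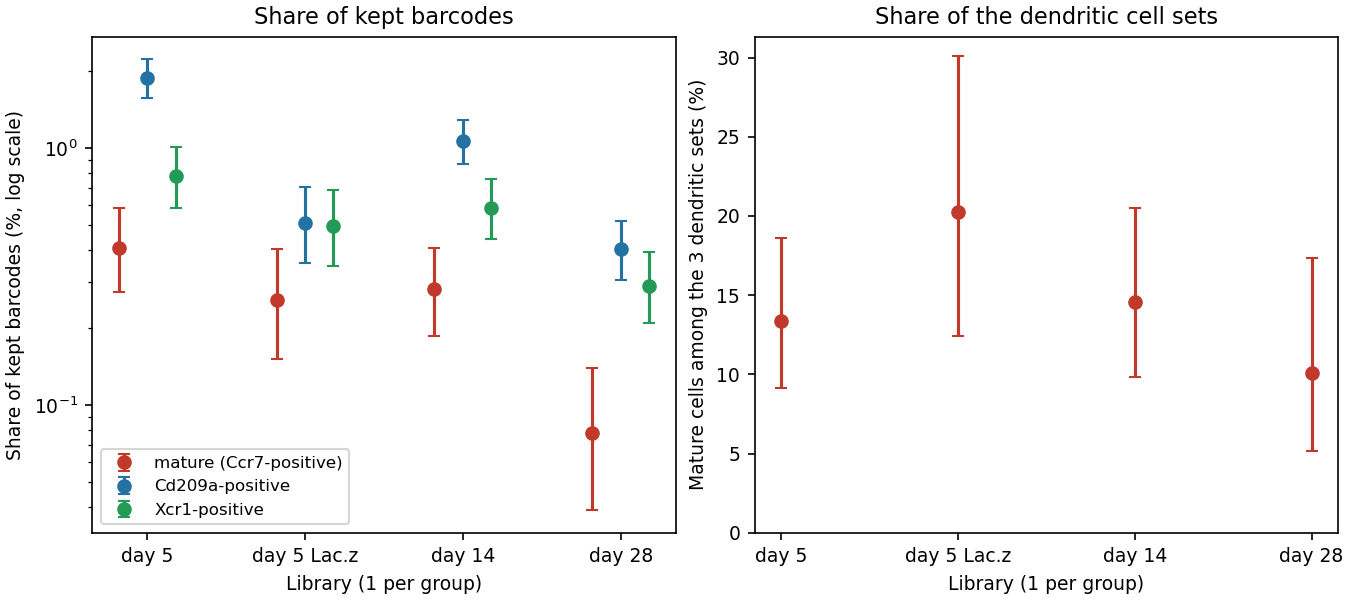
Left, the share of kept barcodes (percent, log scale) in each of the 4 libraries for mature, Cd209a-positive and Xcr1-positive cells; right, the share of mature cells among the 3 dendritic sets (percent). Points are shares of 1 library each and bars are Clopper-Pearson 95% intervals of counting error; the mature share of kept barcodes is lowest at day 28 (0.0778%), while the intervals of the share among dendritic sets overlap between all libraries.

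Few cells lay at the edge of the rule. Only 2 members had exactly 2 Ccr7 UMIs, and 11 barcodes that met the other conditions had 1. Likewise 4 members had exactly 2 UMIs over Fscn1, Ccl22 and Cacnb3, 7 barcodes outside had 1, and 4 barcodes were left out for a Cd3 or Cd79a UMI. The lowest, median and highest Ccr7 counts per member were 4, 21 and 45 at day 5, 3, 26 and 41 among Lac.z members, 2, 26 and 63 at day 14, and 2, 21 and 39 at day 28. Ccr7 counts thus spanned much the same range in all 4 libraries. Fscn1 was found in 69 members, Ccl22 in 67, Cacnb3 in 67, and all 3 in 46. Summed over the members, Ccr7 stood at 1534, 1931, 1914 and 1822 CPM in the order of libraries above, Fscn1 at 960.2, 1211, 986 and 1018 CPM, and Ccl22 at 963, 851, 1433 and 651 CPM. Without members marked as doublets Fscn1 at day 28 stood at 427 CPM, all of it from 1 of the 5 cells left. In the Cd209a-positive cells of the same libraries Ccr7 reached at most 43.6 CPM and in the Xcr1-positive cells at most 16.5 CPM. Fscn1 had 2 UMIs in all Cd209a-positive cells together and none in the Xcr1-positive cells.

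To describe what else set the mature cells apart, UMIs were summed per library and cell set, and the 4 libraries served as replicates of the contrast between sets. The libraries are different conditions, so the spread also holds what differs between those. Of 5711 genes tested with edgeR, 796 were higher in mature than in Cd209a-positive cells (13.9%) and 833 were lower (14.6%) at a Benjamini-Hochberg adjusted p under 0.05. Against Xcr1-positive cells 1006 were higher (17.6%) and 972 lower (17%). Both comparisons share the mature cells. In all, 583 genes (10.2%) were higher and 462 (8.09%) lower against both sets. These percentages are the background for the counts of list members below.

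A list of 25 genes known from mature dendritic cells was higher throughout. All 24 members with enough UMIs to be tested (Slco5a1 had too few) were higher against each comparison set, with a median log2 fold change of 4.49 against Cd209a-positive and 5.58 against Xcr1-positive cells. The medians over all genes tested were -0.03 and -0.04. The list was chosen for this state and with earlier results of these data known, so it is not independent evidence of its direction. Il4i1, a secreted amino acid oxidase that restrains T cells, stood at 670, 525, 452 and 505 CPM in the mature cells of day 5, day 5 with Lac.z, day 14 and day 28, against 5.66 to 26.9 CPM in Cd209a-positive and 0 to 3.67 CPM in Xcr1-positive cells. The sets did not overlap, and the log2 fold changes were 5.08 ± 0.27 (SE, 4 libraries) and 8.72 ± 0.39. Fabp5, a fatty acid-binding protein, stood at 4472, 4244, 3459 and 582 CPM in the same order. Cd209a-positive cells held 25.1 to 88.7 CPM of Fabp5 and Xcr1-positive cells 0 to 13.8 CPM, so that even the low day 28 value lay above both. Tmem123, a surface mucin, was between 893 and 1245 CPM in mature cells against 59.0 to 92.0 and 28.4 to 40.4 CPM.

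Some of these genes were nearly absent from the other dendritic cells. Apol7c, of the apolipoprotein L family, had 219 UMIs in the mature cells and none in either comparison set. Against a floor of 3 UMIs over a whole set it was at least 273-fold higher than in Cd209a-positive and at least 193-fold higher than in Xcr1-positive cells. The receptor gene Tnfrsf4 (OX40) had 104 UMIs in mature cells and 1 UMI in each of the other sets. Serpinb6b, a serine protease inhibitor, stood at 442, 419, 452 and 1148 CPM in mature cells, at 0 to 3.58 CPM in Cd209a-positive and at 40.5 to 185 CPM in Xcr1-positive cells. Stat4, which transmits interleukin 12 signals, stood at 113, 59.3, 84.4 and 91.9 CPM, against 15.1 to 29.8 CPM in Cd209a-positive cells. It had no UMI in Xcr1-positive cells, so mature cells were at least 94.2-fold higher.

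**Figure D2:**
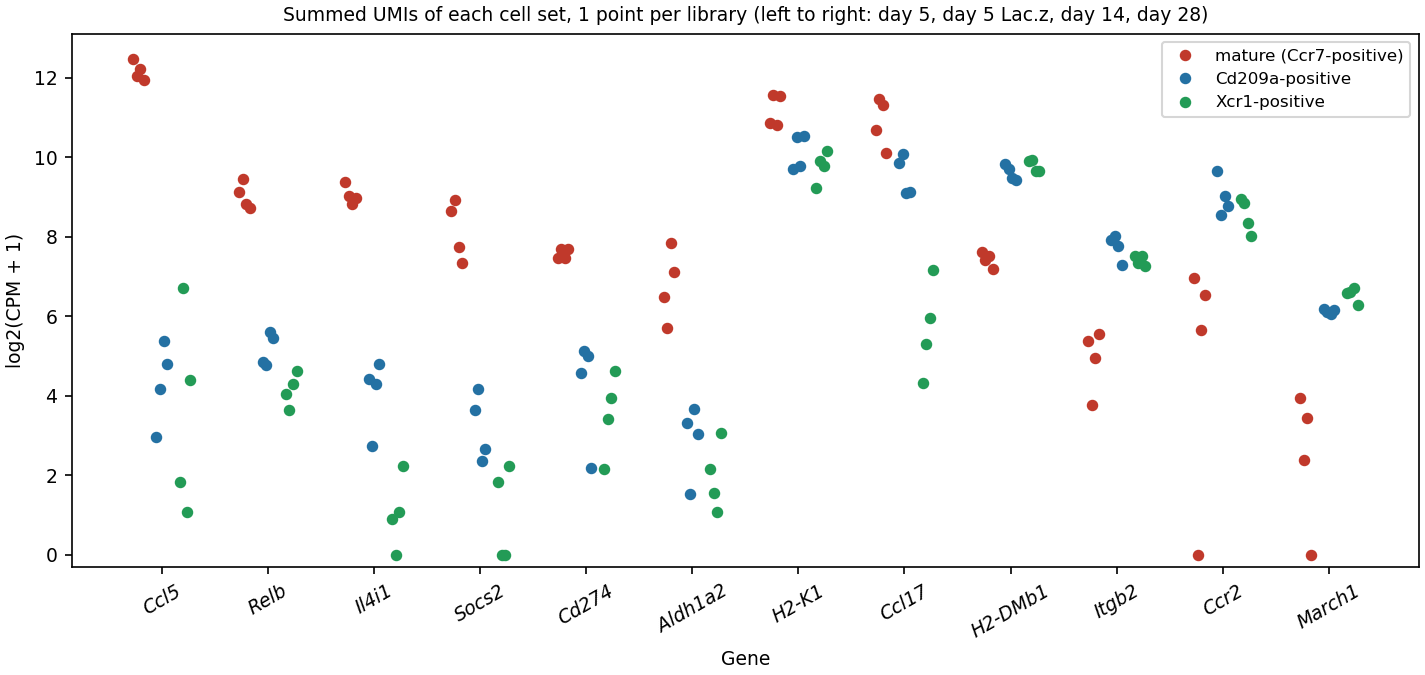
Levels of 12 genes as log2(CPM + 1) in mature, Cd209a-positive and Xcr1-positive cells, 1 point per library and set. Points of mature cells lie apart above both other sets for Ccl5, Relb, Il4i1, Socs2, Cd274, Aldh1a2 and H2-K1, and apart below them for H2-DMb1, Itgb2, Ccr2 and March1.

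Genes of the NF-kB pathway, whose transcription factors drive dendritic cell maturation, were higher in mature cells. Against Xcr1-positive cells all 20 list members were higher, with a median log2 fold change of 2.21. Against Cd209a-positive cells 11 of 20 were higher and 1 lower, with a median of 1.32. Relb, the partner of the noncanonical branch, was found in all 85 members. It stood at 559, 703, 449 and 421 CPM in the order of libraries above, against 26.4 to 47.7 CPM in Cd209a-positive and 11.6 to 23.9 CPM in Xcr1-positive cells, log2 fold changes of 4.07 ± 0.26 and 5.06 ± 0.29. Among tubule barcodes 2.29% held a Relb UMI, at a median depth of 6795 UMIs against 12625 in mature cells. Of the other members of that branch, Nfkb2 stood at 120.0, 127, 146 and 184 CPM (log2 fold changes 2.39 ± 0.24 and 3.34 ± 0.27) and the kinase Map3k14 at 166, 229, 142 and 199 CPM (1.73 ± 0.22 and 2.74 ± 0.25). Rel, the subunit of the canonical branch most linked to dendritic cells, stood at 439, 644, 834 and 765 CPM against 145 to 412 and 88.7 to 231 CPM.

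The feedback inhibitors of the pathway differed from the Xcr1-positive cells but little from the Cd209a-positive cells. Nfkbia, which holds NF-kB in the cytoplasm, stood at 1378, 1245, 1286 and 1079 CPM in mature cells, 846 to 1597 CPM in Cd209a-positive and 165 to 241 CPM in Xcr1-positive cells. Its log2 fold changes were 0.29 ± 0.19 (adjusted p = 0.29) and 2.72 ± 0.21. Tnfaip3 (A20), a ubiquitin-editing inhibitor, stood at 96.0, 139.8, 146 and 107 CPM, with log2 values of -0.12 ± 0.23 (adjusted p = 0.75) and 2.79 ± 0.29. Nfkbie was higher against both sets, by 0.68 ± 0.20 (adjusted p = 0.020) and 2.23 ± 0.23. The call of Nfkbie against Cd209a-positive cells was lost without the day 5 library (adjusted p = 0.070) or the day 14 library (0.085).

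Because these genes moved together against Xcr1-positive cells, the 250 bases before their annotated starts were searched for the NF-kB (kappa B) decamer consensus on both strands, with overlapping matches counted. The windows of the activator Rel and of 3 inhibitors that hold a match are shown, 5′ to 3′ on the gene's strand, from RefSeq's table for GRCm38.p6 (the assembly that mm10 names), with the matched bases in capitals. Rel (chr11:23770970-23771219, minus strand) held 2 overlapping matches, Nfkbie (chr17:45555450-45555699, plus strand) 1, Nfkbia (chr12:55492648-55492897, minus strand) 1 and Tnfaip3 (chr10:19015411-19015660, minus strand, the first of its start sites) 2. The windows lie upstream of the annotated exons, except that the Rel window includes 1 exon base.
Rel: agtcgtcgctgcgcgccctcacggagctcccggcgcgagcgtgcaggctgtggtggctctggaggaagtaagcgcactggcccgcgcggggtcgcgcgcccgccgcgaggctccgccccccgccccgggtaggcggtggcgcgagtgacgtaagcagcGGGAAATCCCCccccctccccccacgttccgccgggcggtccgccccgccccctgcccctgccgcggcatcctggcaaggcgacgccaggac
Nfkbie: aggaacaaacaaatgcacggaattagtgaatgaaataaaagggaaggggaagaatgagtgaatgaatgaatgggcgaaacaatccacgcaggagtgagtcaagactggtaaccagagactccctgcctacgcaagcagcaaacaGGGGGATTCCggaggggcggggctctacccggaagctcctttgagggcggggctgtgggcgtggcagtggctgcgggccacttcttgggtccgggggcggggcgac
Nfkbia: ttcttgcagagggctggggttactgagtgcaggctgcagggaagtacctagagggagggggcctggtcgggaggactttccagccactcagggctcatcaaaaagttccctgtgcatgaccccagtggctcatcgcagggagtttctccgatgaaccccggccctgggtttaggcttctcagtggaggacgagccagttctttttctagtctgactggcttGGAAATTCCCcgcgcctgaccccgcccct
Tnfaip3: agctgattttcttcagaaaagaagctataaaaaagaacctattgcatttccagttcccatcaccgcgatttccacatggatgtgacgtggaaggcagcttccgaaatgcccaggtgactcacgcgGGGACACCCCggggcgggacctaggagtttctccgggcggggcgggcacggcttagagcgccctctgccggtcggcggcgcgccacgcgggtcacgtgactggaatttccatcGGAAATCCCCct
Of the 17 list members found in the table, 8 held a match in at least 1 promoter window (Nfkb2, Rel, Nfkbia, Nfkbie, Traf3, Tnfaip3, Tnfaip2 and Tnip1). Over the 27025 genes searched, which leave out 1 chromosome, 8.23% held one. The list was chosen by pathway and holds its feedback inhibitors, so its share is no evidence about these cells. Of 19 maturation list genes found there, 1 (H2-M2) held a match, and the windows of Ccl22 and Fscn1 held none. A match is a run of letters and not a bound site.

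Chemokine expression was shifted to a few ligands. Ccl5, which attracts T cells and monocytes, had the largest difference of the list. Its lowest, median and highest UMI counts per member were 0, 35 and 530 at day 5, 0, 25.5 and 169 among Lac.z members, 0, 26 and 374 at day 14, and 0, 3 and 198 at day 28. The sums were 5728, 4210, 4765 and 3934 CPM, against 6.85 to 40.8 CPM in Cd209a-positive and 1.10 to 104 CPM in Xcr1-positive cells. The log2 fold changes were 7.97 ± 0.80 and 7.93 ± 0.82 (adjusted p = 1.2e-05 for each), and the sets did not overlap. Most of the day 28 Ccl5 UMIs lay in members marked as doublets, without which 16 of 514 UMIs and 284.5 CPM were left there. Ccl5 was detected in 89.4% of mature cells, in 75.3% of T cells and in 1.74% of tubule barcodes, at median depths of 12625, 4471.5 and 6795 UMIs. Cxcl16, the ligand of the T cell receptor Cxcr6, stood at 816, 1059, 643 and 773 CPM against 111 to 193 CPM in the other sets together.

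Ccl17, a ligand of Ccr4 on T cells, varied widely from cell to cell. Its lowest, median and highest counts per member were 0, 9 and 229 at day 5, 0, 1 and 280 among Lac.z members, 0, 15 and 307 at day 14, and 0, 0 and 69 at day 28. The sums of 1654, 2821, 2557 and 1095 CPM lay above the 545 to 1086 CPM of Cd209a-positive and the 19.0 to 143 CPM of Xcr1-positive cells. The log2 fold changes were 1.56 ± 0.45 (adjusted p = 0.019) and 5.14 ± 0.55. Without members marked as doublets the sums were 1794 CPM with Lac.z and 2525 CPM at day 28. The first call was lost without the Lac.z library (adjusted p = 0.060) and without day 14 (0.096). Counted with a minimum of 10 UMIs per cell, which was chosen after the values were seen, 37 members held Ccl17, 59 held Ccl5, 22 held both and 11 held neither. Over the whole list 4 of 11 chemokines were higher and 5 lower against Cd209a-positive cells, and 4 higher and 1 lower against Xcr1-positive cells. Ccl9, a ligand of Ccr1, was lower against the first set (-1.92 ± 0.32) and higher against the second (3.16 ± 0.42).

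Genes of movement and adhesion split evenly against Cd209a-positive cells, with 6 of 12 higher and 6 lower, and stood at 7 higher and 2 lower against Xcr1-positive cells. Ccr2, which draws cells into inflamed tissue, stood at 125, 0, 49.7 and 91.9 CPM in mature cells, 372 to 805 CPM in Cd209a-positive and 257 to 494 CPM in Xcr1-positive cells. The beta 2 integrin gene Itgb2 followed the same order, with 12.7 to 45.9 CPM against 156 to 257 and 154 to 184 CPM, log2 fold changes of -2.61 ± 0.26 and -2.33 ± 0.27. The other integrin chain tested, Itga4, was higher, at 276, 267, 419.6 and 359.8 CPM against 70.1 to 149 and 75.8 to 141 CPM. Marcks, an actin cross-linker, stood between 1025 and 1172 CPM against 221 to 426 CPM in the other sets, and Myo1g, a myosin of leukocyte membranes, was higher by 2.27 ± 0.21 and 2.45 ± 0.22. None of the ranges given here overlapped between mature and other cells.

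Among costimulatory genes 4 of 9 were higher and 2 lower against Cd209a-positive cells, and 6 higher and 2 lower against Xcr1-positive cells. Cd40, through which T cell help reaches the dendritic cell, stood at 180.0, 229, 86.9 and 99.5 CPM against 20.5 to 29.8 and 0.861 to 13.5 CPM (log2 fold changes 2.67 ± 0.34 and 4.57 ± 0.44). Cd83, a maturation antigen that stabilises class II at the surface, was higher by 1.44 ± 0.21 and 1.34 ± 0.21. Cd86 differed by 0.69 ± 0.17 (adjusted p = 0.0091), a call lost without day 5 (0.057) or day 14 (0.074), and by 0.27 ± 0.17 (adjusted p = 0.24). Cd80 differed by 1.00 ± 0.48 (adjusted p = 0.15) and 2.60 ± 0.59 (adjusted p = 0.0047).

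Genes that restrain T cells were higher at the same time. Of 11 members tested, 6 were higher and 2 lower against each comparison set. Cd274 (PD-L1) stood at 175, 208, 176 and 207 CPM in mature cells, nearly level over the 4 libraries, against 3.58 to 34.0 and 3.45 to 23.9 CPM. Cd200, whose receptor damps myeloid cells, stood at 103, 114, 119 and 122 CPM against 1.79 to 10.4 and 4.40 to 18.4 CPM. Aldh1a2, which makes retinoic acid, stood at 88.8, 50.8, 228 and 138 CPM against 1.89 to 11.8 and 1.10 to 7.34 CPM, and Socs2, a suppressor of cytokine signals, at 398, 487, 214 and 161 CPM against 4.15 to 17 and 0 to 3.67 CPM. No member had an Ido1 or an Il6 UMI, for which the Clopper-Pearson 95% interval reaches 4.25% of cells with a UMI. The receptor gene Btla, a type 1 dendritic cell gene as well as an inhibitor, was lower against Xcr1-positive cells (-2.08 ± 0.26).

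Class I antigen presentation was higher and class II processing lower. Of 13 class I genes, 11 were higher against Cd209a-positive cells and 6 against Xcr1-positive cells, with none lower. H2-K1, a class I heavy chain, stood at 1877, 3020 and 1788 CPM at day 5, day 5 with Lac.z and day 14, and at 2993 CPM at day 28, log2 fold changes of 1.27 ± 0.13 and 1.55 ± 0.13. B2m, the light chain, differed by 1.13 ± 0.12 and 1.34 ± 0.12, and Psme2, an activator of the proteasome, by 2.61 ± 0.16 and 1.66 ± 0.16. Tap1, a peptide transporter, was higher only against Cd209a-positive cells by the test of each set (1.04 ± 0.21), and was at -0.22 ± 0.20 (adjusted p = 0.44) against Xcr1-positive cells. The difference between these 2 values was not tested. H2-K1 and H2-D1 are similar in sequence, and reads can be split between them.

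Of 13 class II genes 10 were lower and 1 higher against Cd209a-positive cells, and 6 lower and 3 higher against Xcr1-positive cells. The subunits of H2-DM, which loads peptide onto class II, were lower, with H2-DMb1 at 194, 169, 184 and 145 CPM in mature cells against 694 to 916 and 802 to 978 CPM (-1.97 ± 0.13 and -2.21 ± 0.13). H2-DMa differed by -1.21 ± 0.12 and -1.15 ± 0.12. March1, the ubiquitin ligase that sends surface class II and Cd86 to degradation, stood at 14.4, 4.24, 9.93 and 0 CPM against 65.7 to 72.2 and 77.1 to 105 CPM. The class II chain H2-Ab1 was lower by a smaller step (-0.76 ± 0.10 and -0.59 ± 0.10). H2-Eb2, a class II beta chain gene, went the other way, with 52.8, 72.0, 84.4 and 107 CPM against 1.58 to 4.84 and 0 to 3.30 CPM; H2-Eb1 is a close copy, which makes its value uncertain. Cd74 differed by -0.37 ± 0.07 against Cd209a-positive cells (adjusted p = 0.0011, but 0.082 without the library block and 0.12 with a minimum of 1 Cd209a or Xcr1 UMI) and by -0.06 ± 0.07 (adjusted p = 0.53) against Xcr1-positive cells.

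Of the cytokines, Il12b, the p40 chain of interleukins 12 and 23, was found in 21 of the 85 members, in 2 Xcr1-positive cells (1.07%) and in no Cd209a-positive cell. It stood at 96.0, 169, 102 and 2028 CPM, and its day 28 level is taken up below. Il15, which sustains CD8 T and natural killer cells, stood at 33.6, 33.9, 39.7 and 115 CPM against 4.22 to 10.8 and 1.93 to 20.2 CPM (3.13 ± 0.35 and 2.58 ± 0.35). Its presenting chain Il15ra was also higher (3.45 ± 0.45 and 2.75 ± 0.44). Il1b was lower against Cd209a-positive (-1.39 ± 0.25, adjusted p = 0.00094, but 0.057 without the library block) and higher against Xcr1-positive cells (1.57 ± 0.25). In all, 2 of 8 tested cytokines were higher and 3 lower against the first set, and 6 were higher and 1 lower against the second. Of 10 survival genes 6 were higher against the first set and 7 against the second, with none lower, among them Birc2 (2.85 ± 0.21 and 3.92 ± 0.23) and Bcl2a1b (1.93 ± 0.22 and 3.65 ± 0.24), whose reads can be split with near-identical copies.

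Genes for sensing and uptake were mostly lower than in Cd209a-positive cells. Of 17 uptake receptors 13 were lower and 2 higher, while against Xcr1-positive cells 6 were higher and 3 lower. The lectin Clec10a stood at 24.0, 4.24, 47.2 and 7.65 CPM against 296 to 350.4 CPM in Cd209a-positive cells. Ly75 (DEC-205), a receptor that carries antigen to late endosomes, stood at 101, 97.4, 99.3 and 115 CPM against 0 to 1.05 and 18.4 to 36.3 CPM. The 120 UMIs in mature against 3 in Cd209a-positive cells gave a ratio of 149 (49.9 to 735). Of 8 Toll-like receptor genes and partners 4 were lower and none higher against each set. Tlr3, the sensor of double-stranded RNA in type 1 cells, had 1 UMI in all members, at 2.40 CPM at day 5, against 138 to 199 CPM in Xcr1-positive cells.

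Metabolic genes moved in opposite directions. Of 14 glycolysis genes 8 were lower and 1 higher against Cd209a-positive cells, and 5 lower and 1 higher against Xcr1-positive cells. Hk2, the first kinase of the pathway, stood at 4.80, 4.24, 12.4 and 0 CPM against 39.4 to 142 and 36.7 to 69.4 CPM, and Ldha differed by -1.14 ± 0.16 and -1.44 ± 0.16. Pfkfb3, which makes the activator of phosphofructokinase, was the exception within the list, at 103, 191, 129 and 191 CPM against 9.44 to 18.0 and 15.4 to 40.4 CPM. The enolase gene Eno3, which the list does not hold, was also higher, at 223, 542, 216 and 53.6 CPM against at most 9.64 CPM. Of 12 cholesterol genes 5 were higher against each set and none lower, for example Idi1 of sterol synthesis (1.40 ± 0.22 and 1.58 ± 0.23). Of 16 proliferation genes 1 was higher and 2 were lower than in Cd209a-positive cells, and 11 were lower than in Xcr1-positive cells, with Mcm3 of the replication helicase at -2.51 ± 0.38. Among 32 interferon-stimulated genes 4 were higher and 6 lower against Cd209a-positive cells, and 3 higher and 5 lower against Xcr1-positive cells, shares near or under the background. None of 13 mitochondrially encoded genes differed past the threshold from Cd209a-positive cells, and 1 was higher than in Xcr1-positive cells.

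**Figure D3:**
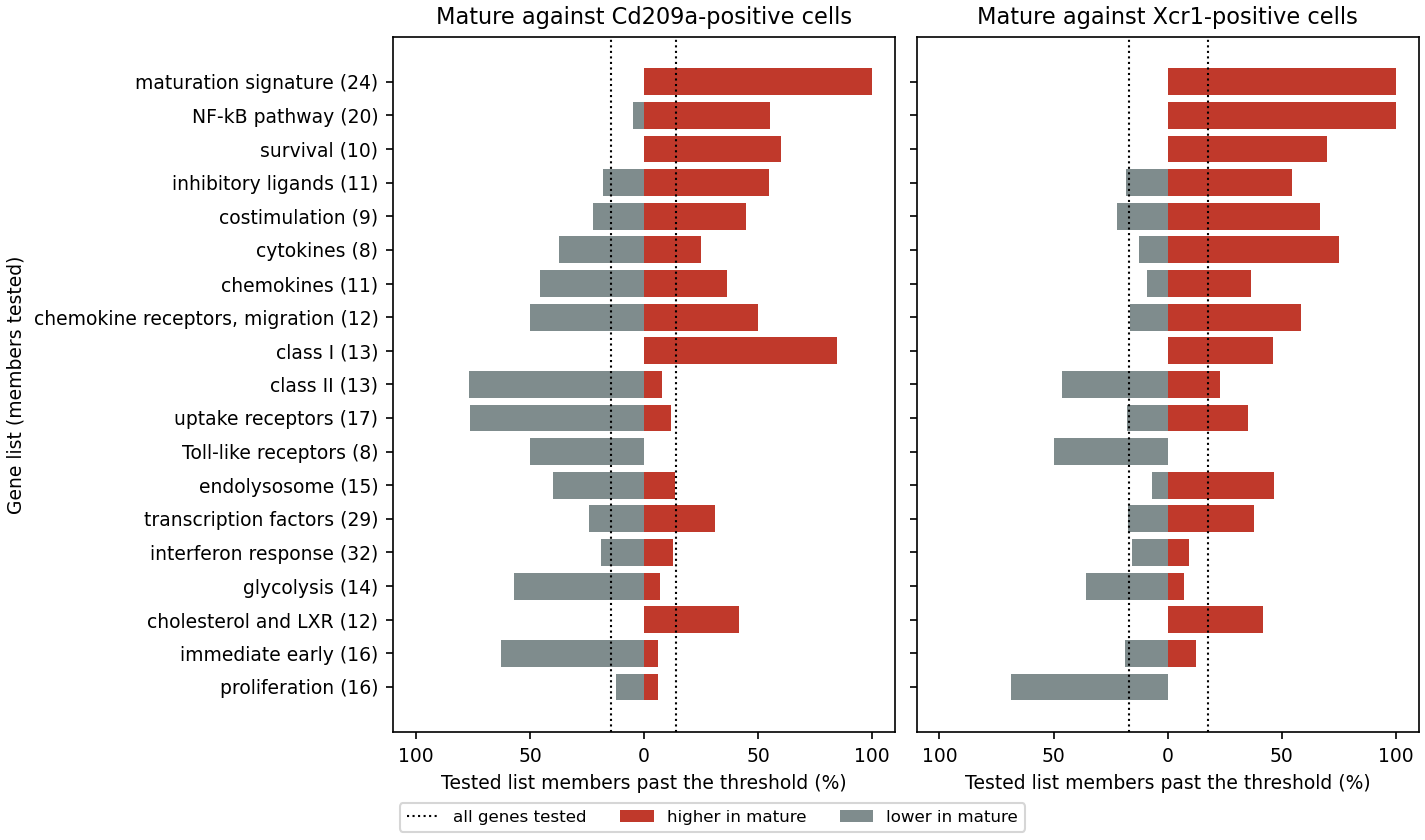
Percent of the tested members of each gene list that were higher (right) or lower (left) in mature cells at an edgeR adjusted p under 0.05, against Cd209a-positive and Xcr1-positive cells, with the number tested in brackets; dotted lines give the percentages over all genes tested. The maturation list is higher in full in both panels, and against Cd209a-positive cells the class II (10 of 13) and uptake (13 of 17) lists lie mostly on the lower side.

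Summed over the members, the type-specific genes were intermediate. Against Cd209a-positive cells 4 of 7 type 1 genes were higher and 1 lower, and 5 of 6 type 2 genes were lower. Against Xcr1-positive cells 6 of 7 type 1 genes were lower and 5 of 6 type 2 genes were higher. The comparison sets were picked by the type markers Xcr1 and Cd209a. Any mixed set would differ from them in these directions, so the counts are a description only. Irf8, the factor that type 1 cells need, stood at 389, 538, 241 and 689 CPM in mature cells, 68.5 to 163 CPM in Cd209a-positive and 1272 to 1796 CPM in Xcr1-positive cells, with no overlap among the 3 sets. Mgl2, a type 2 lectin, stood at 24.0, 72.0, 196 and 45.9 CPM against 727 to 1152 and 0 to 64.9 CPM. Most members held no Mgl2 UMI. Single members held 54 and 23 at day 14, neither with a Fscn1 UMI, and 15 with Lac.z. Mgl2 was thus not at an intermediate level in each cell. The call of Mgl2 against Xcr1-positive cells (2.39 ± 0.68, adjusted p = 0.016) was lost without the Lac.z library (adjusted p = 0.057). Clec9a, a type 1 receptor for dying cells, stood at 12.0, 8.47, 17.4 and 91.9 CPM against 220.0 to 270.1 CPM in Xcr1-positive cells. Its call against Cd209a-positive cells (1.91 ± 0.66, adjusted p = 0.048) was lost without day 14 (0.13) and without day 28 (0.19). Of the 85 members, 6 had at least 2 Xcr1 UMIs (1 at day 5, 2 at day 14 and 3 at day 28) and 2 had at least 2 Cd209a UMIs, both at day 14.

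Outside the lists, 338 genes were candidates for naming as higher and 308 as lower against both sets in every library. Of the 10 with the largest difference in the upper group, Adcy6, an adenylate cyclase, stood at 60.0, 72.0, 62.1 and 68.9 CPM against at most 3.58 CPM in any library of the other sets. Adora2a, the adenosine receptor coupled to that enzyme class, stood at 62.4, 80.5, 37.2 and 68.9 CPM against at most 3.58 CPM. The others were Tmem150c, Gm13546, Mreg, Tm4sf5, Eno3, Slc4a8 and 2200002D01Rik, and Tspan3, a tetraspanin, stood at 456, 428, 469 and 628 CPM against 15.4 to 38.6 CPM in the other sets (4.44 ± 0.25 and 4.28 ± 0.25). In the lower group, Gpr141 and Cd200r1, the receptor for Cd200, had no UMI in any mature cell. Cd200r1 stood at 41.2 to 81.1 CPM in Cd209a-positive and 5.50 to 12.1 CPM in Xcr1-positive cells, and its call against the latter was lost with a minimum of 1 Ccr7 UMI for members (adjusted p = 0.086). The cysteinyl leukotriene receptor Cysltr1 stood at 16.8, 0, 2.48 and 0 CPM against 100.3 to 216 and 44.1 to 88.7 CPM, and the other members were Lmo1, Rgs18, Klhl6, Lrmp, Tifab, Unc119 and Gpr171.

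With Lac.z at day 5, most genes of the mature cells stood within 2-fold of the day 5 library. Of 1523 genes with at least 50 UMIs over both libraries, 36 (2.36%) were at least 2-fold higher and 55 (3.61%) at least 2-fold lower. None of the 20 measured maturation genes was higher and 1 was lower. Ifi27l2a, an interferon-inducible gene, had the highest ratio among genes of which no single cell held over 25% of the UMIs, with 91.2 CPM at day 5 and 665 CPM with Lac.z, a ratio of 7.29 (exact conditional 95% interval 5.09 to 10.7). It was found in 10 of 29 and 14 of 18 members, and its ratio was 5.71 in Cd209a-positive and 11.3 in Xcr1-positive cells. The next were Ndrg1 (4.05), Acadl (3.64), Gnb4 (3.53) and Nsmce3 (2.91). By the same limit, the lowest ratios were those of Nrp2 (0.192), Capg (0.193), Fyb (0.265), Ccl9 (0.299) and Ctsc (0.304). With at most 2 C1q UMIs these became 0.213, 0.470, 0.573, 0.448 and 0.416, so that Fyb no longer reached 2-fold.

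The summed interferon response list stood higher in the Lac.z library in all 3 dendritic sets. In the mature cells the size depended on the members with more than 2 C1q UMIs. It summed to 2494 CPM at day 5 and 4333 CPM with Lac.z, a ratio of 1.74 (1.59 to 1.90), with 1 of 8 measured members at least 2-fold higher and a median log2 ratio of 0.61 against 0.07 over all genes measured. Among members with at most 2 C1q UMIs the ratio was 3.02, with 4 of 6 measured members higher and a median of 1.88. It was 2.69 in Cd209a-positive and 3.67 in Xcr1-positive cells. In the day 5 library 1 C1q-rich cell held 59 of the 61 UMIs of Irf7, the factor that amplifies the interferon response, and 72 of the 90 UMIs of the ubiquitin-like Isg15. Isg15 stood at 216 and 313 CPM, a ratio of 1.45 in all members and of 5.44 in those with at most 2 C1q UMIs. Cxcl9, a chemokine induced by interferon gamma, had a ratio of 0.274 in all members and of 12.1 in those with at most 2 C1q UMIs. Of its 515 UMIs at day 5, 427 and 80 lay in 2 C1q-rich members, so the direction rests on these cells. With Lac.z, 3 of the 17 members within that limit held all 70 Cxcl9 UMIs, 38 of them in 1 cell. Isg15 was uneven there too. Single Lac.z members within the limit held 16, 11 and 9 Isg15 UMIs and any other at most 5. A further 29 lay in a member with 3 C1q UMIs.

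**Figure D4:**
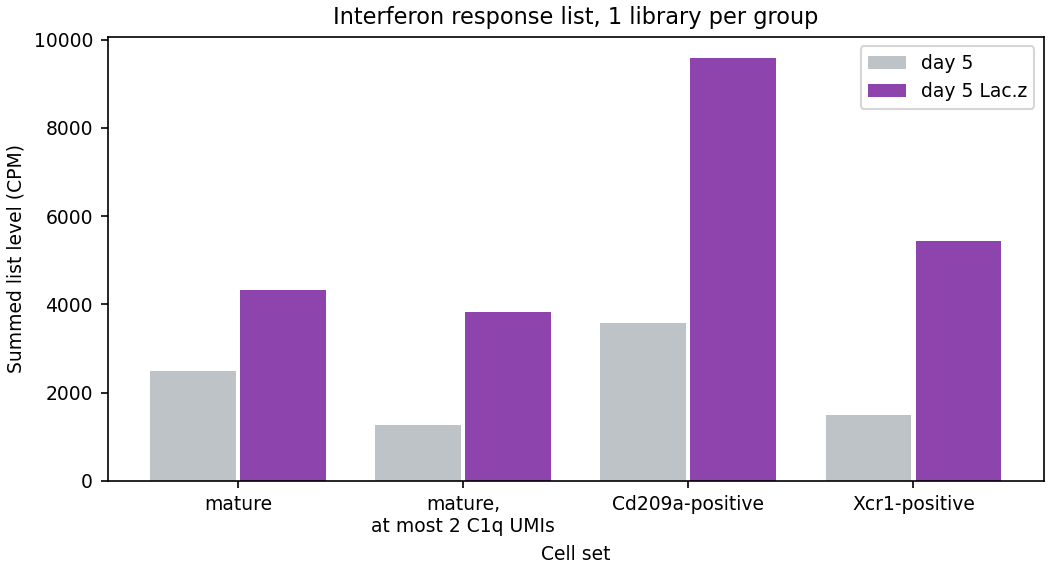
Summed level (CPM) of the interferon response list at day 5 and at day 5 with Lac.z in mature cells, in mature cells with at most 2 C1q UMIs, and in Cd209a-positive and Xcr1-positive cells; each bar is 1 library, with no replicate error. The Lac.z bar is higher in each set, with 4333 against 2494 CPM in all mature cells.

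Transcripts of dividing cells were concentrated in a few Lac.z members. In that library 2 of 18 held 35 and 31 UMIs of Mki67 and Top2a together, genes of mitosis, and no member of the other libraries reached 5. The proliferation list summed to 876 CPM at day 5 and 2342 CPM with Lac.z (ratio 2.67, 2.34 to 3.06), and 2 of 3 measured members were at least 2-fold higher. The list's sum was also 1.47-fold higher with Lac.z in Cd209a-positive cells and stood at 0.816 of the day 5 value in Xcr1-positive cells. Endolysosome genes were lower with Lac.z in all members (ratio 0.503, 7 of 14 measured members lower) but not in those with at most 2 C1q UMIs (1.06). Class I genes summed to 10735 and 14062 CPM (ratio 1.31, 1.25 to 1.37), with none of 11 past 2-fold.

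At day 14, 100 of 1851 measured genes (5.4%) were at least 2-fold higher than at day 5 and 89 (4.81%) lower. Il1b stood at 759 CPM at day 5 and 2128 CPM at day 14, a ratio of 2.81 (2.46 to 3.20), found in 19 of 29 and 17 of 27 members. It was 2.33 with at most 2 C1q UMIs, 1.84 in Cd209a-positive and 2.74 in Xcr1-positive cells. The median Il1b count per member was 2 UMIs at day 5 and 4 at day 14. Of the 857 day 14 UMIs, single members held 133, 127, 124, 87, 84 and 80, each with at most 1 Fscn1 UMI. The members with 133, 84 and 80 also held Cd209a or Mgl2 UMIs and only 1 Relb UMI each. The ratio without these members was not computed. Aldh1a2 stood at 88.8 and 228 CPM (2.57, 1.74 to 3.88), and Cd40 stood at 180.0 and 86.9 CPM (0.483, 0.314 to 0.730), which came to 0.736 with at most 2 C1q UMIs. Aldh1a2 was found in 17 of 29 and 17 of 27 members, with a median of 1 UMI in both libraries. Single day 14 members held 26 and 16 of its 92 UMIs. Of the 14 measured immediate early genes 4 were higher and 1 lower. Fosb (5.83) had the highest ratio of any gene named by rank, followed by Gm42418 (5.26), Akr7a5 (4.34) and Gpcpd1 (4.04). Gm42418, a gene model that overlaps ribosomal RNA, had ratios of 5.29 and 5.66 in the other dendritic sets as well. The file headers give software version 3.0.2 at day 5, with or without Lac.z, and 3.1.0 at days 14 and 28, and time and version cannot be told apart. The lowest ratios under that limit belonged to Ctsc (0.214), Aif1 (0.242), Ctsb (0.243), the pseudogene Rpl10-ps3 (0.246) and Cd68 (0.252). With at most 2 C1q UMIs, Ctsb came to 0.938 and Cd68 to 0.673.

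Of the maturation list, 2 of 22 measured members were at least 2-fold higher at day 14 and none lower, with a median log2 ratio of -0.02 against -0.04 over all genes measured. The NF-kB list had none of 15 measured members past 2-fold in either direction. Rel, at 439 and 834 CPM, came to 1.90 (1.58 to 2.29). The 7 measured proximal tubule markers were all at least 2-fold higher at day 14, and 1 day 14 member held 1770 tubule UMIs. Their part in the other values was not tested.

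At day 28, where 11 members were left, 63 of 1251 measured genes (5.04%) were at least 2-fold higher and 147 (11.8%) lower than at day 5. Il12b had the highest ratio among the measured list members. Its lowest, median and highest UMIs per member were 0, 0 and 17 at day 5, and 0, 1 and 103 at day 28. It was found in 5 of 29 members at day 5 (17.2%, 5.85 to 35.8) and in 8 of 11 at day 28 (72.7%, 39.0 to 94.0). The sums were 40 and 265 UMIs, or 96.0 and 2028 CPM, a ratio of 21.1 (15.1 to 30.2). A single cell held 103 of the 265 UMIs. Without that cell the ratio was 14.3 (10.1 to 20.7), and without the members marked as doublets, which left 5 at day 28, it was 47.1 (30.3 to 76.5). The last ratio rested on very few cells. Single members held 103 and 54 of its 158 UMIs at day 28 and 17 of its 23 UMIs at day 5. With Lac.z and at day 14 the ratios to day 5 were 1.76 (1.11 to 2.81) and 1.06 (0.669 to 1.68). Without the members marked as doublets, Il12b stood at 59.6 CPM at day 5, 37.2 CPM with Lac.z and 39.4 CPM at day 14, so that both lay below day 5.

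Type 1 genes with few UMIs stood higher at day 28. Xcr1 had 4 UMIs at day 5 and 15 at day 28, and Clec9a 5 and 12. The day 28 Xcr1 UMIs lay in 4 members, which held no Fscn1 UMI and 1 to 3 Relb UMIs each. Of these, 1 member with only 2 Ccr7 UMIs held 8 of the 15 Xcr1 UMIs. An Xcr1 or Clec9a UMI was found in 3 of 29, 1 of 18, 3 of 27 and 6 of 11 members in the order day 5, day 5 with Lac.z, day 14 and day 28. Of the members with Il12b, 0 of 5, 1 of 3, 2 of 5 and 5 of 8 held such a UMI. Serpinb6b and Bcl2l14 of the maturation list stood 2.60-fold (2.08 to 3.24) and 6.38-fold (4.51 to 9.11) higher at day 28. Without the cell that led Il12b, Serpinb6b was at 1.82 and Bcl2l14 at 2.97. The summed type 1 list had a ratio of 2.04 and the type 2 list of 0.304. Of the type 1 list only 2 members had enough UMIs to be measured, neither was past 2-fold, and their median log2 ratio was 0.10 against -0.12 over all genes measured.

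Fabp5 went the other way, from 4472 CPM at day 5 to 582 CPM at day 28, a ratio of 0.130 (0.102 to 0.164). Its lowest, median and highest UMIs per member were 0, 27 and 302 at day 5, 0, 37.5 and 252 among Lac.z members, 0, 39 and 200 at day 14, and 0, 0 and 34 at day 28. The first 3 libraries were alike in range and day 28 lay low. With a minimum of 10 UMIs per cell, chosen after the values were seen, 54 members held Fabp5 and 8 held Il12b, and none of the 85 held both. Of the 8, those of Lac.z and day 14 and part of those at day 5 and day 28 were marked as doublets. The day 5 members among the 8 held 9 and 8 Fabp5 UMIs, so the count depends on the minimum. Below it, members with 3 Il12b UMIs at day 5 and 4 at day 14 held 160 and 114 Fabp5 UMIs. Among genes of which no single cell held over 25% of the UMIs, the other lowest ratios were those of S100a6, Lgals1, Ltb and Nrp2. S100a6 stood at 1193 and 99.5 CPM (11.99-fold lower, 6.95 to 22.7) and was found in 29 of 29 and 4 of 11 members. Lgals1 had 119 and 3 UMIs (ratio 0.0804, 0.0163 to 0.241) and Ltb 50 and 1 (0.0638, 0.00158 to 0.372), with none of either at day 28 in the members not marked as doublets. With at most 2 C1q UMIs, Lgals1 had 32 UMIs (118 CPM) at day 5 and 2 (17.1 CPM) at day 28, a smaller difference. Ltb had 48 and 1 by that limit. Nrp2, a semaphorin receptor, had 55 UMIs at day 5 and none at day 28, a level at least 5.75-fold lower when day 28 is set to a floor of 3 UMIs. The highest ratios were those of Cd81 (6.24), Sqstm1 (5.56), Dnase1l3 (5.32), Gm42418 (5.25) and Ppt1 (5.07). Of the 35 day 28 Ppt1 UMIs, 9, 4, 10 and 11 lay in the members with Xcr1 UMIs and no Fscn1 described above. The same members held 12, 3, 1 and 5 of the 45 Dnase1l3 UMIs. They held 3, 1, 0 and 9 of the 54 Sqstm1 UMIs and 2, 1, 8 and 0 of the 88 Cd81 UMIs. The maturation list was mixed, with 3 of 20 measured members higher and 4 lower. Survival genes had a median log2 ratio of -0.77 against -0.12 over all genes measured, and 1 of 7 was past 2-fold, lower.

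**Figure D5:**
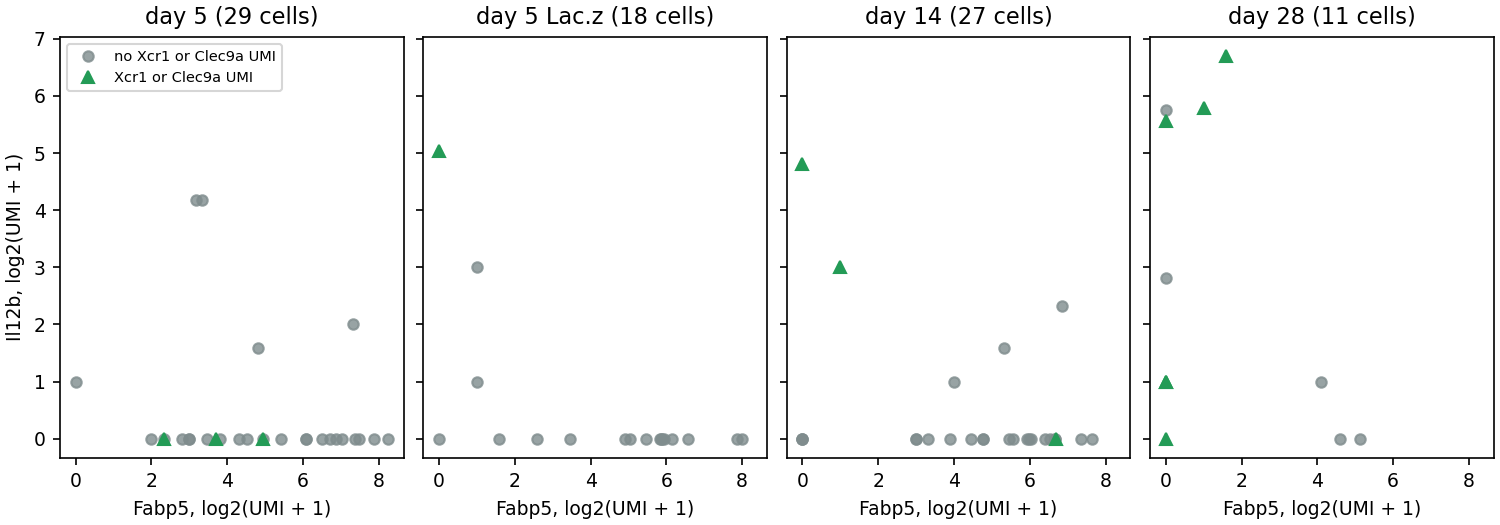
Il12b against Fabp5 in each member, both as log2(UMI + 1), in 1 panel per library, with triangles for members that hold an Xcr1 or Clec9a UMI. The 8 members with at least 10 Il12b UMIs lie under 10 Fabp5 UMIs, and 4 of them are in the day 28 panel. Several of the 8 were marked as doublets.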

How the data were processed

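Single-cell RNA sequencing libraries of 4 groups were analysed. The deposited values are UMI counts per gene and barcode, not normalized; the matrix headers give software version 3.0.2 or 3.1.0, per the file headers, and the genome build is mm10, per the submitters' processing notes. Library barcodes held 31053 genes. Members and gene lists (36 lists, 438 symbols, 3 unmatched) were chosen with earlier results of these data known. Counts were summed per library and cell set and tested with edgeR 4.0.16 (R 4.3.3; TMM, filterByExpr, quasi-likelihood, library as a block, Benjamini-Hochberg adjusted p under 0.05). Log2 fold changes are given with SE. With 1 library per group no test between libraries was made: a gene was called at 2-fold or more with at least 50 UMIs over both libraries, with exact conditional intervals, and shares have Clopper-Pearson 95% intervals (scipy 1.17.1); both cover counting error only. Scrublet (scanpy 1.11.5) assumed 0.8% doublets per 1000 barcodes, and marked members were kept in the main values. Outside the lists, the 10 genes per direction with the largest difference against both cell sets, in the same direction in all 4 libraries and with at least 50 CPM in the higher set, were named; between libraries, the 5 highest and 5 lowest ratios of called genes in which no cell held over 25% of UMIs. A gene that this rule names at day 14 is not reported here. The edgeR step was tested on simulated data. DESeq2 1.42.0, other filters, thresholds and scalings, and leaving out each library were tried. Limits on C1q and tubule UMIs, and leaving out marked members for single genes, or the member with most Il12b at day 28, were chosen after the data were seen.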

Additional observations from a re-analysis of the deposited data

How the results depend on the processing

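Between libraries, no paired analysis was possible because each group has 1 library; cell sets were compared within libraries by the library block. Called genes numbered 1144 to 1540 for mature against Cd209a-positive cells and 1389 to 1916 for mature against Xcr1-positive cells when a library was left out, 1396 and 1667 with no library block, and 1469 and 1769 with DESeq2, against 1629 and 1978. Of 2562 alternative values for 184 named gene results, 2525 kept direction and side of the threshold, 23 lost and 8 gained a call, and 6 changed sign, none of them called. Tnfaip3 against Cd209a-positive cells went from -0.12 to values between -0.36 and 0.060 with a library left out (0.060 without day 14, 0.012 without day 28), 0.082 with a minimum of 1 Cd209a or Xcr1 UMI and 0.11 with at most 2 C1q UMIs. Cd74 against Xcr1-positive cells went from -0.06 to 0.027 with that minimum and 0.072 with under 10 tubule UMIs. The cause was not tested. The share of mature cells against day 5 came to 1.27 (Lac.z), 2.05 (day 14) and 0.957 (day 28) among Ptprc barcodes, and to 1.51 (Lac.z) and 0.755 (day 28) among the dendritic sets, where the denominators themselves differ between libraries. Genes called between libraries numbered 91 (Lac.z), 189 (day 14) and 210 (day 28). At 1.5-fold they were 302, 465 and 447, with at least 20 UMIs 354, 550 and 618, and with at least 100 UMIs 35, 66 and 73. With at most 2 C1q UMIs they were 47 for Lac.z (34 higher, 13 lower), 148 for day 14 (111 higher, 37 lower) and 122 for day 28 (45 higher, 77 lower). Without marked doublets day 14 had 113 (47 higher, 66 lower), and day 28, with 5 members left, was not run. TMM scaling gave 22 higher and 78 lower for Lac.z, 98 and 94 for day 14, and 45 and 182 for day 28. With 11 to 29 members per library, low genes were not measurable between libraries.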
